A study of Mus musculus with 4 samples.

Results

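Transcripts of the Wnt signalling pathway were measured by RNA sequencing in mouse haploid embryonic stem cells (haESCs) treated with RDF or with its solvent DMSO. The genes described are 48 named members of the pathway, 11 Wnt ligands, 2 genes for ligand secretion, 12 receptors, 8 components of the cytoplasmic core, 4 Tcf/Lef factors and 11 feedback regulators or targets. They were chosen by symbol, and all 48 were found among the 23235 gene symbols of the data. There were 2 samples of each condition, 4 in all. By the labels all 4 are mouse haESCs that differ in treatment, and the study's figure legends name the line as HG165. That line is androgenetic, which means that its cells carry a paternal genome and no maternal one, and it was derived from C57BL/6 mice. RDF stands for Repsox, which inhibits TGF-β pathways, DMH1, which inhibits BMP4 signalling, and Forskolin, which activates adenylate cyclase. None of these chemicals is named as acting on the Wnt pathway. ES medium with serum and LIF was the general culture medium, whereas the 2i medium also described holds CHIR99021, an inhibitor of the Gsk3 kinases. The methods of the study describe culture on feeder cells in general, but they state that most experiments were done without them. The exceptions that the methods name are the analyses of haploid percentage, morphology and alkaline phosphatase, and RNA sequencing is not among them. Neither the labels nor the methods state outright which holds for these samples. Doses, the length of treatment and the share of haploid cells are not given for them either, and replicates of the same line that are not stated to come from separate cultures measure only the spread between these samples.

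Wnt proteins are lipid-modified ligands that are acylated by Porcn and carried to the cell surface by Wls. They bind a Frizzled receptor together with the coreceptor Lrp5 or Lrp6. Without ligand, a complex that contains Axin, Apc and Gsk3 marks β-catenin for degradation. With ligand, Dishevelled proteins help to disable this complex, and β-catenin accumulates and acts with Tcf/Lef factors on target genes, several of which encode inhibitors of the pathway itself. In mouse ESCs, inhibition of Gsk3 or removal of the repressor Tcf7l1 is known to favour self-renewal.

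Values are FPKM, fragment counts scaled for transcript length and for the mapped fragments of the library, and were compared as log2(FPKM + 1) in genes whose mean over the 4 samples reached 1 FPKM. Gene positions are those of the GENCODE annotation on the build mm9, which the authors used for mapping. A log2 fold change is the mean of these log2 values in RDF minus that in DMSO, which understates the change of genes with low values. The libraries held an estimated 9530000 to 12360000 fragments, and each of 10 pluripotency markers was detected in all 4. These markers summed to 7826 to 7889 FPKM in DMSO and 4665 to 5131 FPKM in RDF, mostly Dppa5a, with 4 of the 10 higher and 4 lower at the threshold used below. Of 5 marker lists for other cell types, that of fibroblasts summed to 34.9 to 37.9 FPKM in DMSO and 26.2 to 29.2 FPKM in RDF, that of trophoblast to 37.5 to 40.1 and 69.5 to 70.7 FPKM, that of neural cells to 54.5 to 61.0 and 30.9 to 32.8 FPKM, that of primitive endoderm to 10.2 to 12.7 and 15.0 to 15.5 FPKM, and that of the primitive streak to 6.15 to 7.21 and 6.45 to 6.48 FPKM. No marker of these lists was at 0 in all 4 samples. Tfap2c made up most of the trophoblast sum and Tubb3 most of the neural sum. Within the fibroblast list Col1a1, Col1a2 and Postn were lower and Dcn was higher in RDF at the threshold used below. At the same threshold, 3 of the 4 tested trophoblast markers were higher in RDF, Tfap2c, Gata3 and Hand1 (75%, against 13.3% of all genes tested). Cdx2 and Elf5 of this list had means under 1 FPKM and were not tested, and their conditions overlapped. Of the 3 tested neural markers, Tubb3 alone passed, and it was lower in RDF. Of the 3 tested primitive endoderm markers, Gata6 alone passed, and it was higher in RDF (limma adjusted p = 0.0428). Without the limit of 1 FPKM the adjusted p of Gata6 was 0.114. The part of these markers in the differences described here was not tested, and in bulk samples fewer cells of a type and less RNA per cell cannot be told apart.

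Of the 48 genes, 35 passed the filter on low values. RDF raised 6 of them, Wnt7b, Fzd5, Fzd7, Dvl2, Tcf7l2 and Cdx1, and lowered 4, Wnt6, Wnt11, Sfrp1 and Lgr4, at an adjusted p under 0.05 from limma. These 10 calls are 28.6% of the tested Wnt genes, against 21.6% of all genes tested. Called rises made up 17.1% of the tested Wnt genes, against 13.3% of all 11733 genes tested, and called falls made up 11.4%, against 8.28%. The median log2 fold change of the 35 genes was 0.13, and that of all genes tested was 0.03. Both RDF values lay above both DMSO values in 15 of the 35 genes (42.9%, against 37.1% of all genes tested) and below them in 4 (11.4%, against 28.5%), so that the conditions did not overlap in 19 (54.3%, against 65.5%). The changes were small, since the largest ratio of condition means among the called genes was the 1.91-fold rise of Tcf7l2, and the falls of Wnt6, Lgr4 and Sfrp1 were 1.90-fold, 1.56-fold and 1.55-fold. Without RDF replicate 1 or without RDF replicate 2 limma called only Sfrp1, with 0 rises in either case, whereas 8 and 6 of the Wnt genes respectively were higher at an unadjusted p under 0.05. Over all genes, the number of rises called fell from 1561 to 358 without RDF replicate 1 and to 253 without RDF replicate 2. In a fit of 3 libraries, the lone sample of a condition is assumed to vary like the others.

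**Figure D1:**
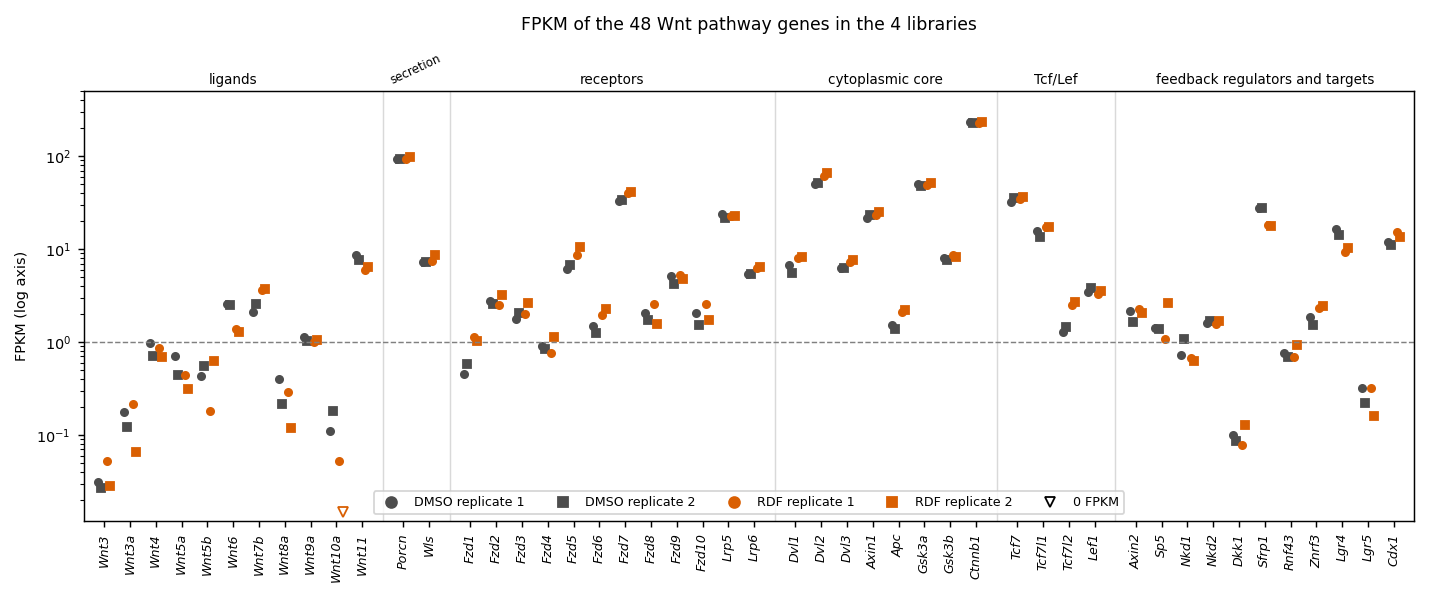
FPKM (log axis) of the 48 Wnt pathway genes, grouped by role, with grey symbols for the DMSO and orange symbols for the RDF libraries, circles for replicate 1 and squares for replicate 2. The dashed line marks 1 FPKM and the open triangle a value of 0. Ctnnb1 was at 225 to 235 FPKM in all 4 libraries, whereas Sfrp1 and Lgr4 lay lower and Tcf7l2 higher in both RDF libraries.

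Among the ligands, Wnt11 was the most abundant in both conditions, with 47.8% to 50.1% of the summed ligand FPKM in DMSO and 42.2% to 44.97% in RDF. Wnt11, known for signalling in gastrulation movements and organ formation, lies on chromosome 7 from 105983622 to 106003705. Its level was 8.66 and 7.64 FPKM with DMSO and 5.90 and 6.45 FPKM with RDF. It fell by 0.35 on the log2 scale (standard error, SE, 0.094, limma adjusted p = 0.0451). The values of the conditions did not overlap, but the call was lost with the replicate number as a block (adjusted p = 0.0575), without the mean-variance trend (0.0531), without the filter (0.0979) and when any 1 of the 4 libraries was left out (0.0512 to 0.185). Wnt6, which spans 74818466 to 74831893 of chromosome 1, had 2.54 and 2.48 FPKM in DMSO and 1.37 and 1.27 FPKM in RDF. These values stand for about 50.1, 58.2, 35.01 and 30.3 fragments. Wnt6 fell by 0.60 on the log2 scale (SE 0.103, limma adjusted p = 0.0129), and its adjusted p was 0.0688 without RDF replicate 1 and 0.0835 without RDF replicate 2. Wnt7b moved the other way. This gene spans 85365869 to 85412251 of chromosome 15 and had 2.12 and 2.57 FPKM in DMSO and 3.62 and 3.73 FPKM in RDF, and its log2 fold change was 0.49 (SE 0.108, limma adjusted p = 0.0269). The adjusted p of Wnt7b was 0.0838 without DMSO replicate 1, 0.115 without RDF replicate 1, 0.134 without RDF replicate 2 and 0.0709 without the filter. In DMSO the values of Wnt6 and Wnt7b overlapped, with a ratio of Wnt7b to Wnt6 of 0.834 and 1.04, and in RDF Wnt7b was above Wnt6 in both samples, with a ratio of 2.65 and 2.93. The ratio was formed after these values were seen and is given as a description.

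The fourth ligand past the filter, Wnt9a, had 1.14 and 1.03 FPKM in DMSO and 1.00 and 1.06 FPKM in RDF. Its log2 fold change was -0.04, with a 95% interval from -0.32 to 0.24. The other 7 ligands stayed under a mean of 1 FPKM. Wnt4 was at 0.686 to 0.971 FPKM, and Wnt5a, the classical ligand of β-catenin-independent signalling, was at 0.312 to 0.712 FPKM. Wnt5b spanned 0.180 to 0.625 FPKM, with both extremes in the RDF samples. Wnt3 and Wnt3a, ligands that act through β-catenin in the early embryo, were near the limit of detection. Wnt3 reached at most 0.0522 FPKM, which is about 1.99 fragments, and Wnt3a had between 2.096 and 7.42 fragments. Wnt8a had 0.117 to 0.400 FPKM, and Wnt10a had 0.110 and 0.181 FPKM in DMSO against 0.0522 and 0 FPKM in RDF. Both RDF values of Wnt10a lay below both DMSO values, with at most 5.08 estimated fragments in any sample, and its adjusted p without the filter was 0.157. The conditions overlapped in Wnt3, Wnt3a and Wnt8a. The summed FPKM of the 11 ligands was 17.3 and 16.0 in DMSO and 13.99 and 14.34 in RDF, so that the ligand sum was lower in both RDF samples.

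**Figure D2:**
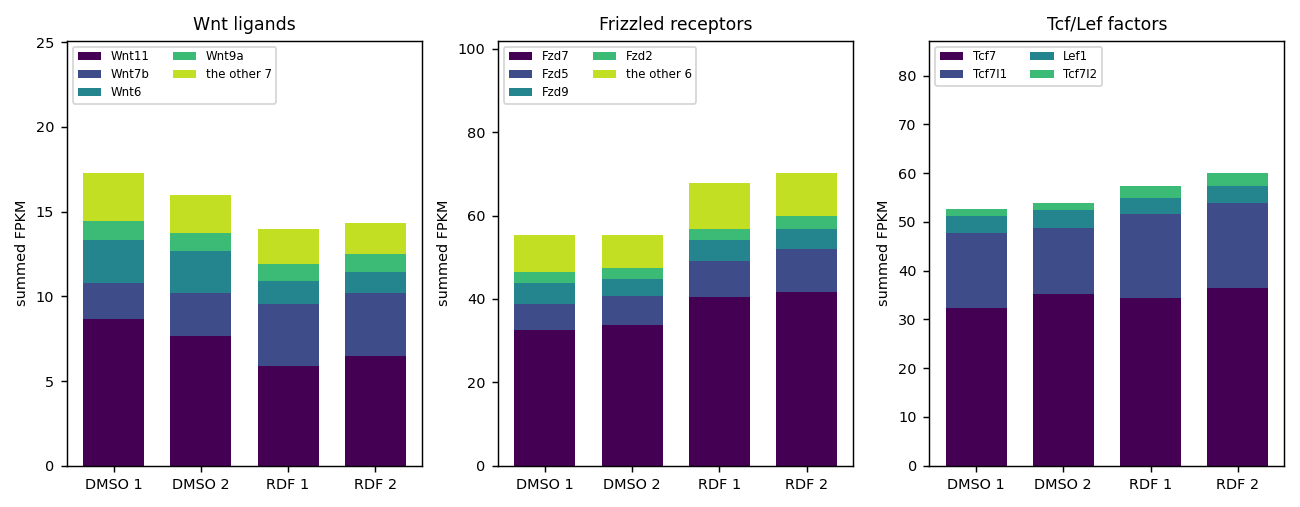
Summed FPKM of the Wnt ligands, the Frizzled receptors and the Tcf/Lef factors in each of the 4 libraries, as stacked bars that start at 0, with the 4 genes of highest mean shown by name. The ligand sum was 13.99 and 14.34 FPKM in RDF against 17.3 and 16.0 in DMSO, and the Frizzled sum was 67.7 and 70.3 FPKM in RDF against 55.3 and 55.4 in DMSO.

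Tcf/Lef factors recognise short motifs, so the promoter windows of the Wnt genes were searched for CTTTGAT and CTTTGAA on both strands. The windows are those of RefSeq on the build GRCm38.p6, from 250 bases before to 50 bases after a transcript start, and 31 of the 48 genes had at least 1 window, 41 windows in all. CTTTGAT stood in 3 of them (7.32%, against 3.73% of 32851 windows of all genes), those of Sp5, Wnt5b and Wnt11, and CTTTGAA in 2 (4.88%, against 5.14%), those of Gsk3a and Dkk1. The 250 bases before the start are shown for Sp5, a direct target of β-catenin, and for Wnt11, the ligand with the highest level. Capitals mark the motif, which reads ATCAAAG where it lies on the other strand. The Sp5 stretch is chr2:70474673-70474922 and the Wnt11 stretch chr7:98834862-98835111, both on the plus strand and in GRCm38.p6. The match lies 104 to 98 bases before the start of Sp5 and 51 to 45 bases before that of Wnt11. A match describes letters and not a bound site.
Sp5: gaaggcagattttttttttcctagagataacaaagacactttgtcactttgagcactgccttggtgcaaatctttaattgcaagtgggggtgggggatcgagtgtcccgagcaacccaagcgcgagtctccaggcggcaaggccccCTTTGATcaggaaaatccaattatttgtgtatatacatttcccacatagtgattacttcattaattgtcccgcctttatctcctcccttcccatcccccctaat
Wnt11: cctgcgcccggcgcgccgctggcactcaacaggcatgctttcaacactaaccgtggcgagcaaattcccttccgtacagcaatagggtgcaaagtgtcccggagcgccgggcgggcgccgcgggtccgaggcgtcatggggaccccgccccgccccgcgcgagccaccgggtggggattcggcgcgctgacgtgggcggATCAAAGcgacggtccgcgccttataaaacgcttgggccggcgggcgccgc

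The genes for ligand secretion differed little. Porcn, the acyltransferase, had 94.1 and 93.3 FPKM in DMSO and 92.7 and 96.9 FPKM in RDF (log2 fold change 0.02, 95% interval from -0.11 to 0.15), and its sign turned with median-ratio scaling. Wls, the carrier, had 7.257 and 7.262 FPKM in DMSO and 7.51 and 8.61 FPKM in RDF. Its log2 fold change of 0.13 (95% interval from -0.09 to 0.35) had an adjusted p of 0.326 from limma.

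Frizzled transcripts were dominated by Fzd7, which held 58.9% to 61.1% of the summed Frizzled FPKM in DMSO and 59.2% to 59.6% in RDF. Fzd7, on chromosome 1 from 59538991 to 59543791, is a receptor known for its role in ESC self-renewal. It rose from 32.6 and 33.8 FPKM in DMSO to 40.4 and 41.6 FPKM in RDF, a log2 fold change of 0.30 (SE 0.056, limma adjusted p = 0.0174). Fzd5, the next in order, lies on chromosome 1 from 64777134 to 64784324. It had 6.10 and 6.83 FPKM in DMSO and 8.62 and 10.5 FPKM in RDF, a log2 fold change of 0.49 (SE 0.110, limma adjusted p = 0.0271). For both genes the RDF values lay above the DMSO values. Without DMSO replicate 1, RDF replicate 1 and RDF replicate 2 in turn, the adjusted p was 0.0580, 0.0802 and 0.106 for Fzd7 and 0.0753, 0.0571 and 0.133 for Fzd5. The adjusted p of Fzd5 was 0.0741 without the filter.

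Of the other receptors, Fzd6 came closest to the threshold, with 1.501 and 1.24 FPKM in DMSO and 1.96 and 2.27 FPKM in RDF (log2 fold change 0.39, adjusted p = 0.0639). Fzd6 passed when the trend was left out of the fit (adjusted p = 0.0442). Fzd9 followed Fzd7 and Fzd5 in both conditions, at 4.22 to 5.25 FPKM, with a log2 fold change of 0.08. The log2 fold change was 0.07 for Fzd2, 0.19 for Fzd3, 0.07 for Fzd8 and 0.16 for Fzd10, and the values of the conditions overlapped in each of them. In RDF the order ran on through Fzd2, Fzd3, Fzd10, Fzd6 and Fzd8, and each neighbouring pair of these overlapped. Fzd1, below the filter, had 0.454 and 0.578 FPKM in DMSO and 1.12 and 1.022 FPKM in RDF, or about 18.9, 28.7, 60.8 and 51.5 fragments. Fzd1 was not tested with the filter, and without it the adjusted p was 0.0489. Fzd4, also below the filter, was at 0.767 to 1.14 FPKM with overlapping conditions. Among the coreceptors, Lrp5 was higher than Lrp6 in all 4 samples. Lrp5 had a log2 fold change of 0.01 (95% interval from -0.16 to 0.17), which turned to -0.025 with median-ratio scaling and to -0.011 with quantile normalization. Lrp6 had 5.45 and 5.47 FPKM in DMSO and 6.33 and 6.44 FPKM in RDF, values that did not overlap (log2 fold change 0.19, adjusted p = 0.130). The summed Frizzled FPKM was 55.3 and 55.4 in DMSO and 67.7 and 70.3 in RDF.

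In the cytoplasmic core, Dvl2 was the only gene that passed the threshold. It encodes a Dishevelled protein, a relay between the receptor and the destruction complex, and lies on chromosome 11 from 69814097 to 69825803. Dvl2 held 79.5% to 81.5% of the summed Dishevelled FPKM in the 4 samples and rose from 50.5 and 52.0 FPKM in DMSO to 60.9 and 65.9 FPKM in RDF. The log2 fold change was 0.30 (SE 0.061, limma adjusted p = 0.0210). Its adjusted p was 0.0598 without DMSO replicate 1, 0.0630 without RDF replicate 1, 0.119 without RDF replicate 2 and 0.0504 without the mean-variance trend. Dvl1 (6.81 and 5.58 FPKM in DMSO, 8.01 and 8.21 in RDF) and Dvl3 (6.25 and 6.26 FPKM in DMSO, 7.36 and 7.58 in RDF) did not pass, with log2 fold changes of 0.35 and 0.22 and adjusted p of 0.0617 and 0.0855. In both, the RDF values lay above the DMSO values. The adjusted p of Dvl1 was 0.0320 without DMSO replicate 1.

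Ctnnb1, which encodes β-catenin and lies on chromosome 9 from 120838334 to 120869625, had the highest level of the 48 genes. Its level was 232 and 225 FPKM with DMSO and 227 and 235 FPKM with RDF. Its log2 fold change was 0.01 with a 95% interval from -0.12 to 0.15, and its sign turned with median-ratio scaling. The level of the transcript says nothing of the amount of stabilised protein. Of the destruction complex, Gsk3a had a log2 fold change of 0.04, Gsk3b of 0.10 and Axin1 of 0.11, and none of them passed (adjusted p between 0.318 and 0.631). Apc, a further component of the complex, had 1.53 and 1.39 FPKM in DMSO and 2.09 and 2.23 FPKM in RDF. Its log2 fold change was 0.36 with a limma adjusted p of 0.0604, which was 0.0314 without the mean-variance trend. Gsk3a was above Gsk3b in every sample, at 47.7 to 51.5 FPKM against 7.62 to 8.59 FPKM.

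**Figure D3:**
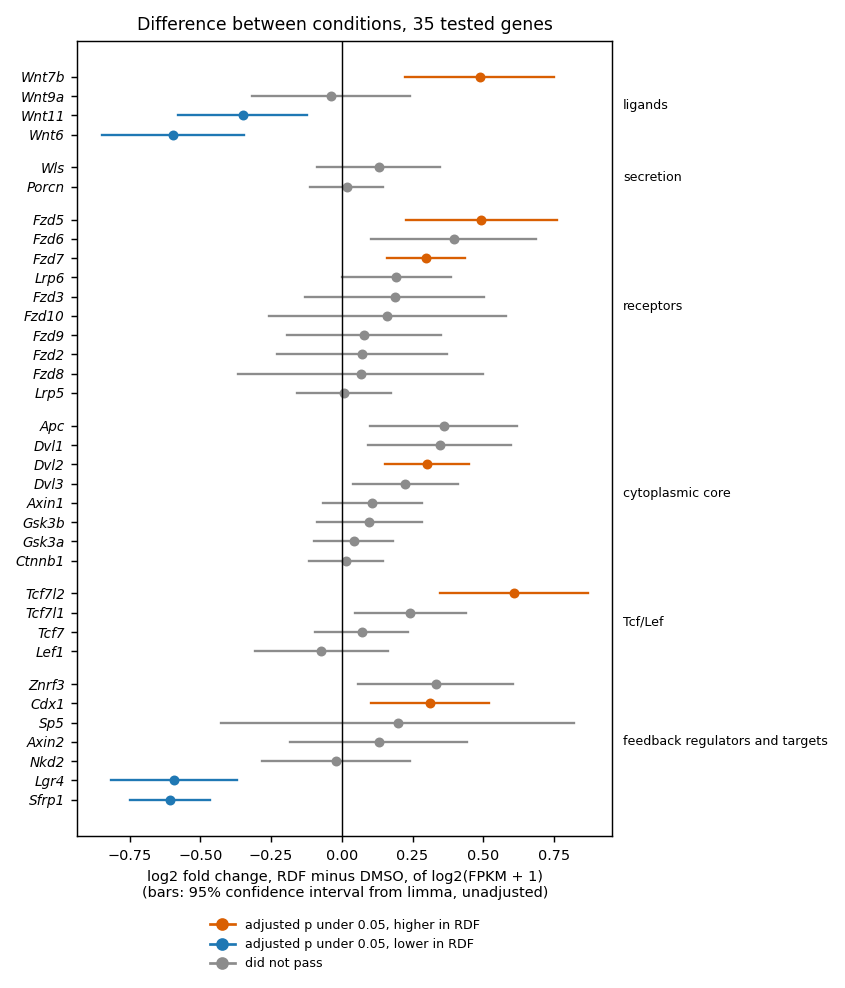
Log2 fold change of log2(FPKM + 1), RDF minus DMSO, of the 35 tested Wnt genes by role, with the 95% confidence interval from limma, which is not adjusted for the number of genes. Orange genes rose and blue genes fell at an adjusted p under 0.05, from -0.61 for Sfrp1 to 0.61 for Tcf7l2.

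The Tcf/Lef factors kept their order in both conditions, with Tcf7 above Tcf7l1, Lef1 and Tcf7l2 and no overlap between neighbours. Tcf7l2, the lowest of them, was the gene that rose. It lies on chromosome 19 from 55816300 to 56008144 and had 1.29 and 1.44 FPKM in DMSO and 2.49 and 2.72 FPKM in RDF. At the estimated depth these levels stand for about 52.9, 70.3, 132 and 135 fragments. The log2 fold change of Tcf7l2 was 0.61 (SE 0.108, limma adjusted p = 0.0136), and the adjusted p was 0.0713 without RDF replicate 1 and 0.0953 without RDF replicate 2. Its share of the Tcf/Lef sum went from 2.46% to 2.67% in the DMSO samples to 4.34% to 4.53% in the RDF samples.

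Tcf7l1, the repressor best known for limiting pluripotency genes in mouse ESCs, had 15.5 and 13.5 FPKM in DMSO and 17.2 and 17.4 FPKM in RDF. Its log2 fold change of 0.24 had an adjusted p of 0.0808, which was 0.0487 without DMSO replicate 1. Tcf7 had 32.3 and 35.1 FPKM in DMSO and 34.4 and 36.4 FPKM in RDF (log2 fold change 0.07, 95% interval from -0.09 to 0.23). Lef1, often used as a target of the pathway as well, had 3.50 and 3.86 FPKM in DMSO and 3.33 and 3.56 FPKM in RDF (log2 fold change -0.07, 95% interval from -0.31 to 0.16). For Tcf7 and Lef1 the values of the conditions overlapped.

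Of the 11 feedback regulators and targets, 7 were tested, of which Cdx1 rose, Sfrp1 and Lgr4 fell and 4 did not pass. The calls are 42.9% of these 7 genes, against 21.6% of all genes tested. Axin2, a feedback scaffold of the destruction complex, had 2.18 and 1.65 FPKM in DMSO and 2.28 and 2.07 FPKM in RDF. The log2 fold change was 0.13, with a 95% interval from -0.18 to 0.44 and an adjusted p of 0.497 from limma, and the conditions overlapped. Sp5, whose promoter stretch is shown above, had 1.43 and 1.37 FPKM in DMSO and 1.07 and 2.65 FPKM in RDF. Both extremes of Sp5 were RDF samples, and its 95% interval from -0.43 to 0.82 around a log2 fold change of 0.20 was the widest of the 35 genes. Without RDF replicate 2 the log2 fold change of Sp5 was -0.21. Nkd2, an inhibitor that binds Dishevelled, had a log2 fold change of -0.02. Its relative Nkd1 did not reach the filter and had 0.730 and 1.07 FPKM in DMSO and 0.674 and 0.619 FPKM in RDF. Znrf3, a ubiquitin ligase that removes Frizzled from the cell surface, had 1.84 and 1.53 FPKM in DMSO and 2.30 and 2.44 FPKM in RDF (log2 fold change 0.33, adjusted p = 0.0841). Rnf43, its relative, was at 0.688 to 0.919 FPKM, below the filter. Cdx1, a homeobox gene that responds to Wnt in the embryo, had 11.98 and 10.99 FPKM in DMSO and 15.4 and 13.6 FPKM in RDF. The log2 fold change of Cdx1 was 0.31 (standard error 0.086), and its adjusted p of 0.0494 was the nearest to the threshold among the calls. The call of Cdx1 was lost with median-ratio scaling (0.0687), with quantile normalization (0.0937), without the trend (0.0697), without the filter (0.0984) and when any 1 of the 4 libraries was left out (0.0613 to 0.202).

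Among the falls, those with the lowest adjusted p were of an extracellular antagonist and of a receptor for R-spondins, although the log2 fold change of Wnt6 was like that of the receptor. Sfrp1 encodes a secreted Frizzled-related protein that binds Wnt ligands and lies on chromosome 8 from 24521974 to 24560104. Its level was 27.6 and 27.8 FPKM with DMSO and 18.03 and 17.7 FPKM with RDF, so that the replicates lay far closer to each other than the conditions. Its log2 fold change was -0.61 (SE 0.058, limma adjusted p = 0.00253). Sfrp1 was called under all 12 alternative settings, with adjusted p between 0.00251 and 0.0402. Lgr4, the receptor through which R-spondins enhance Wnt signalling, lies on chromosome 2 from 109757804 to 109854414. It had 16.3 and 14.2 FPKM in DMSO and 9.28 and 10.3 FPKM in RDF, a log2 fold change of -0.59 (SE 0.091, limma adjusted p = 0.00919). The adjusted p of Lgr4 was 0.0719 without RDF replicate 1 and 0.0564 without RDF replicate 2. Its relative Lgr5, a target of the pathway in the intestine, was at 0.160 to 0.323 FPKM, and Dkk1, an inhibitor that binds Lrp coreceptors, was at 0.0777 to 0.128 FPKM, about 2.32 to 3.59 fragments. The conditions overlapped in both Lgr5 and Dkk1.

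**Figure D4:**
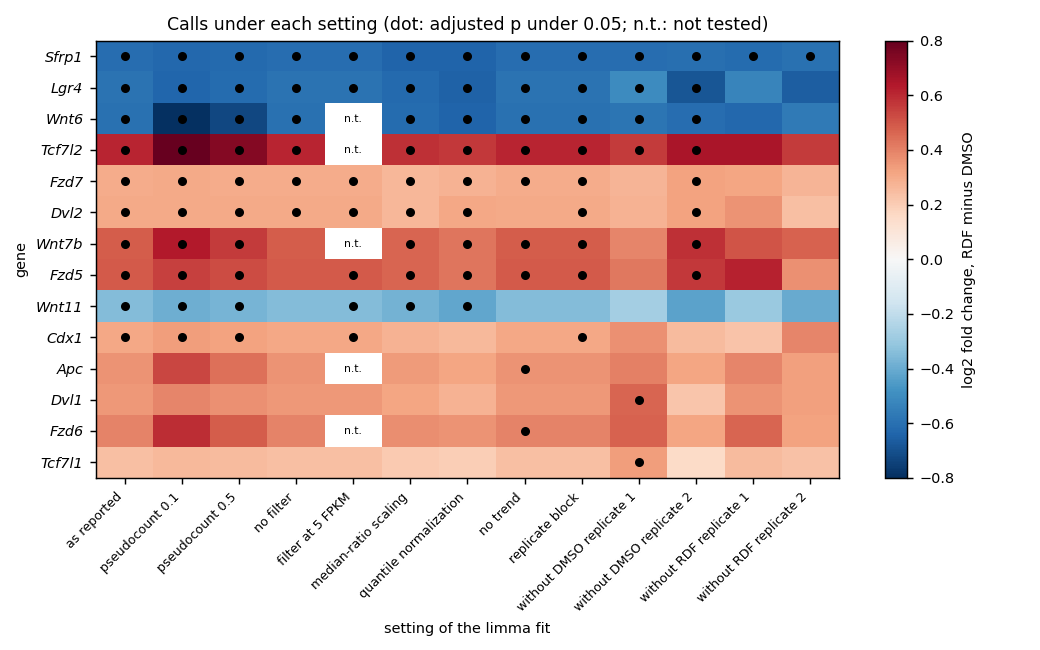
Log2 fold change, RDF minus DMSO, as colour for the 14 of the 35 tested Wnt genes that were called in at least 1 of 13 settings of the limma fit. Dots mark an adjusted p under 0.05, and n.t. marks genes that a filter at 5 FPKM left untested. Sfrp1 carries a dot in every column, and without RDF replicate 1 or RDF replicate 2 it is the only gene with a dot.

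A list of 75 further genes of the pathway was read in the same fit. Of the 46 that passed the filter, 10 rose and 4 fell (21.7% and 8.70%, against 13.3% and 8.28% of all genes tested), and their median log2 fold change was 0.12. The 5 largest rises were those of Ep300, Dact2, Zfp703, Apcdd1 and Dact1. Ep300, a histone acetyltransferase that serves β-catenin and many other factors as a coactivator, was at 5.15 ± 0.197 FPKM with DMSO and at 10.5 ± 0.915 FPKM with RDF (mean ± SD, n = 2), which is a log2 fold change of 0.90 with a limma adjusted p of 0.00286. Dact2 and Dact1 encode proteins that bind Dishevelled. Dact2 was at 6.94 ± 0.172 FPKM with DMSO and at 11.8 ± 0.132 FPKM with RDF (mean ± SD, n = 2), which is a log2 fold change of 0.69 with an adjusted p of 0.00315. For Dact1 the log2 fold change was 0.49 (adjusted p = 0.0224), for Zfp703 0.58 (adjusted p = 0.0278) and for Apcdd1, a membrane-bound inhibitor, 0.53 (adjusted p = 0.0409). The 4 falls were those of Dkkl1, Dkk3, Notum and Ctbp2. Dkkl1, a relative of the Dickkopf inhibitors, changed by -0.80 on the log2 scale (adjusted p = 0.0402), and Dkk3 by -0.45 (adjusted p = 0.0149). Notum, an enzyme that removes the lipid from Wnt proteins, changed by -0.42 (adjusted p = 0.0492), and the corepressor Ctbp2 by -0.26 (adjusted p = 0.0189). Of these 9 genes, Ep300 and Dact2 were called under all 12 alternative settings. The call was lost in at least 1 fit that left out a library for the other 7, where the highest adjusted p lay between 0.0882 for Dkk3 and 0.194 for Notum. In limma without the filter, the call was also lost for Apcdd1 (adjusted p = 0.101), Dkkl1 (0.110), Notum (0.0943), Zfp703 (0.0798) and Dact1 (0.0644). Leaving out the trend ended the calls of Dkkl1 (0.0620) and Ctbp2 (0.0510), and a pseudocount of 0.1 that of Notum (0.0515). The call of Apcdd1 was also lost with the replicate number as a block (adjusted p = 0.0513) and with quantile normalization (0.0532).

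The further genes include 7 reported targets, of which 4 were tested and Zfp703 alone passed (25%, against 21.6% of all genes tested). Myc had a log2 fold change of 0.35 (adjusted p = 0.0696), Ccnd1 of -0.16 (0.163) and Tnfrsf19 of -0.07 (0.624). T, a mesoderm gene of the primitive streak and a target of the pathway, lay below the filter, with 1.63 and 1.27 FPKM in DMSO and 0.333 and 0.401 FPKM in RDF. Cdx4, a homeobox gene also below the filter, had 0.0638 and 0.161 FPKM in DMSO and 0.560 and 0.609 FPKM in RDF, or about 1.19, 3.60, 13.6 and 13.8 fragments. T was thus lower and Cdx4 higher in both RDF samples, and in the fit without the filter both passed (adjusted p = 0.0250 for T and 0.0276 for Cdx4). Cdx2, the last of the 7, had 0.0952 to 0.735 FPKM with overlapping conditions. Wnt7a, a ligand among the further genes and not 1 of the 7 targets, also lay below the filter. It had 0.512 and 0.462 FPKM in DMSO and 0.165 and 0.146 FPKM in RDF, or about 15.5, 16.6, 6.47 and 5.32 fragments. In limma without the filter Wnt7a passed as well (adjusted p = 0.0328). Values of T, Cdx4, Cdx2, Myc, Ccnd1, Tnfrsf19 and Wnt7a were added after they were seen.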

How the data were processed

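RNA sequencing of 4 libraries of mouse haESCs, 2 treated with DMSO and 2 with RDF by the labels, gave FPKM values that the authors deposited for 23235 gene symbols in each library. Per the labels' processing notes, TopHat2 2.0.14, Bowtie2 2.1.0, Cufflinks 2.2.1 and the build mm9 were used. Counts were not used here. Estimated depth was read from the steps between low FPKM values, as the depth that brought these values closest to whole fragments. At that depth 40.0% to 43.5% of them lay within 0.1 of a whole fragment, against 20% if spread evenly. The depth was chosen on the same values, so this share is no separate check of it. Fragment numbers are the FPKM times the longest GENCODE transcript of the gene and the estimated depth. The transcript lengths behind the authors' FPKM can differ, so fragment numbers are approximate and no count test was run.

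The 11733 genes whose mean reached 1 FPKM were fitted as log2(FPKM + 1) with limma 3.58.1 in R 4.3.3, by lmFit, then eBayes allowing the prior variance to follow the mean, and p-values were adjusted by Benjamini-Hochberg over all of them, with a threshold of 0.05. An exact two-sided permutation test of 2 against 2 samples cannot give a p below 0.333. As a check of the code, the fit was run on simulated data with independent normal noise and 200 changed genes. It recovered 98% of the changes of 0.5 and 100% of those of 1 on the log2 scale, with 7 false calls. The real data had more calls than that and their noise need not be independent, so the simulation does not measure how reliable the calls are. Alternatives were pseudocounts of 0.1 and 0.5, no filter, a filter at 5 FPKM, median-ratio scaling, quantile normalization, no trend, a replicate block and leaving out each library.

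The Wnt genes and lists were chosen with earlier results of these data known. Every Wnt gene is accounted for. Values per sample were set for the called genes over 1.5-fold, ligands over 1 FPKM, Axin2, Sp5, Lef1, Tcf7, Ctnnb1, Tcf7l1 and Wls, and were added for other genes after values were seen. From the further pathway genes, the 5 largest rises and up to 5 largest falls past the threshold are named. Promoter windows are from RefSeq, GRCm38.p6. Positions were found for 47 of the 48 genes.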

Additional observations from a re-analysis of the deposited data

How the results depend on the processing

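Over 404 combinations of a tested Wnt gene and an alternative, 346 kept their direction and side of the threshold, 36 kept the direction and lost the threshold, 4 kept the direction and passed it, and 18 changed sign. Without the filter the calls over all genes were 942 rises and 606 falls, the further pathway genes had 5 rises and the median log2 fold change of the Wnt genes was 0.068, which was 0.083 with quantile normalization. Without the trend the further pathway genes had 2 falls. Leaving out each library in turn gave 253 to 1121 rises and 195 to 731 falls over all genes, 0 to 5 rises and 1 to 3 falls among the Wnt genes, and 2 to 7 rises and 0 to 2 falls among the further genes. The 0 falls, by limma without RDF replicate 2, stood beside 4 falls at an unadjusted p under 0.05. These fits rest on 3 samples, and the cause of other changes was not tested.

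Signs turned for genes that had not passed the threshold. With median-ratio scaling the log2 fold change was -0.016 for Porcn, -0.025 for Lrp5 and -0.019 for Ctnnb1, and with quantile normalization it was -0.011 for Lrp5. Over the fits without 1 library it spanned -0.078 to 0.00047 for Wnt9a, -0.015 to 0.049 for Porcn, -0.066 to 0.21 for Fzd2, -0.18 to 0.31 for Fzd8, -0.038 to 0.19 for Fzd9, -0.036 to 0.36 for Fzd10, -0.059 to 0.072 for Lrp5, -0.0094 to 0.038 for Ctnnb1, -0.0034 to 0.26 for Axin2, -0.21 to 0.61 for Sp5 and -0.062 to 0.019 for Nkd2.

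The labels number the replicates 1 and 2 in both conditions but do not say that a number marks a shared batch. Deviations of same-numbered samples correlated across genes with r = 0.134 (Spearman 0.114), where genes are not independent replicates. With the replicate number as a block, 1651 genes rose and 1066 fell, 6 Wnt genes rose and 3 fell, 10 of the further genes rose and 5 fell, with Apcdd1 lost (adjusted p = 0.0513) and Pygo1 (0.0319) gained among the rises and Dact3 (0.0282) gained among the falls, and the median log2 fold change of the Wnt genes stayed at 0.13. Among the Wnt genes the block ended the call of Wnt11 and of no other gene.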
